A study of Mus musculus with 22 samples.

Results

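Oct4 was switched on in mouse embryos around the time of implantation, and the whole embryo was sequenced as RNA at gastrulation, at embryonic day 7.5 (E7.5). The libraries described here are the 6 pools that the labels give as Oct4 line and E7.5, out of 22 pools in the series. All 6 were of the C57BL/6 background and carried a ROSA26 transgene and an Oct4 transgene, 1 copy of each (ROSA26tg/+; Oct4tg/+), from mothers mated to males homozygous for both. The 3 induced pools came from mothers injected with doxycycline into the abdomen at E4.5 and then given it in the drinking water up to E7.5, and the 3 control pools came from mothers given none. Each pool held 8 to 12 embryos, which the series' design text calls biological replicates without saying whether pools came from separate litters, so a p-value here measures the spread between these pools. No group received doxycycline without an inducible transgene, so an effect of the drug itself and an effect of Oct4 cannot be told apart within these 6 pools. The labels give no promoter for the transgene, and RNA of whole embryos mixes the embryo proper with extraembryonic tissue, so fewer cells of a type and less RNA per cell cannot be told apart either. The question that the comparison addresses is which genes differ when Oct4 is kept high through the first steps of germ layer formation.

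Oct4, encoded by Pou5f1, is a POU-domain transcription factor that binds the DNA octamer ATGCAAAT, often with a Sox factor beside it, and is needed for the pluripotent cells of the epiblast. During gastrulation epiblast cells pass through the primitive streak, where Nodal and Wnt signals switch on Eomes and T, and leave it as mesoderm or definitive endoderm. The early streak gives extraembryonic, cardiac and endodermal progenitors, while the later streak, under Wnt, Cdx and Hox genes, gives the trunk and tail, and Oct4 fades as the tissues form.

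Library totals were 24.9 to 40.1 M counts in induced pools and 29.4 to 42.3 M in control pools, with 20378 to 21262 genes detected. Mitochondrial genes took 3.81% to 5.41% of the counts in induced pools and 4.07% to 5.51% in control pools. The leading principal component held 49.8% of the variance and separated the groups, with scores of 18.9, 24.6 and 17.5 in induced pools and -23.1, -16.7 and -21.1 in control pools. Levels are given in CPM, that is, read counts relative to the TMM-scaled total of each of these 6 libraries, in the order of pools 1, 2 and 3. Fold changes are on the log2 scale, induced over control, with their standard error (SE). A gene was called at an adjusted p under 0.05 in edgeR's quasi-likelihood test with Benjamini-Hochberg adjustment over all genes tested, and every adjusted p below comes from that fit unless another is named.

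Pou5f1 (chr17, 35642982 to 35647721, NCBIM37) had 597, 603 and 480 CPM in induced pools and 236, 203 and 206 CPM in control pools. The groups did not overlap, and the third induced pool was the lowest of its group. The difference was 1.38 ± 0.11 on the log2 scale (adjusted p = 0.00037, 3 pools against 3), and transgene and endogenous reads are counted together. Nanog, another factor of pluripotent cells, had 33.5, 25.9 and 24.5 CPM in induced pools and 20, 17.6 and 17 CPM in control pools (0.62 ± 0.13, adjusted p = 0.0272). Nanog no longer passed when control 1 (0.0699), control 2 (0.104) or control 3 (0.134) was left out. Sox2, the partner of Oct4 in pluripotent cells and a neural factor later, had 29.6, 27 and 32 CPM in induced pools and 50.1, 29.2 and 36.7 CPM in control pools and did not pass (-0.39 ± 0.18, adjusted p = 0.302). The induced pools were thus not higher for all 3 factors.

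The test called 991 of 16071 genes (6.17%), 362 higher (2.25%) and 629 lower (3.91%) in induced pools. The lower side was also the steeper one. Of the called genes, 173 were higher by at least 2-fold (1.08% of all genes tested) and 388 lower by at least 2-fold (2.41%). By at least 4-fold 40 were higher and 126 lower, and 16 were higher and 44 lower by at least 8-fold, against a median log2 fold change of 0.02 over all genes tested. Protein-coding genes made up 351 of the 362 and 609 of the 629. In every fit that left out 1 library, 107 of the higher and 278 of the lower genes kept their call, and 2830 genes had an unadjusted p under 0.05. Induced and control pools did not overlap for any of the 991 called genes, while over all genes tested they did not overlap with the induced pools higher for 11.5% and with the induced pools lower for 12.3%. The plot of all genes shows both sides.

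Genes of the primitive streak at its onset rose together. Of 10 tested genes of early streak and cardiac mesoderm onset, 9 rose and none fell, with a median log2 fold change of 1.83 and all 10 values above 0, and 5 to 9 were called when 1 library was left out. Eomes (chr9, 118387330 to 118395250), the T-box factor that starts mesoderm and endoderm formation, had 214, 196 and 137 CPM in induced pools and 29.7, 39.5 and 37.5 CPM in control pools (2.36 ± 0.18, adjusted p = 0.000297). Mesp1 (chr7, 86937127 to 86938674), the factor of the first cardiac mesoderm, had 57.3, 62.7 and 37.7 CPM in induced pools and 10.9, 10.2 and 7.49 CPM in control pools (2.47 ± 0.21, adjusted p = 0.000414). Lhx1 (chr11, 84331479 to 84338923), a LIM homeobox factor of the anterior streak and its derivatives, had 96.9, 68.3 and 42.5 CPM in induced pools and 13.5, 10.4 and 12.5 CPM in control pools (2.52 ± 0.29, adjusted p = 0.00293). In all 3 genes the lowest induced pool, the third, stayed above the highest control pool. Wnt3, the ligand that starts the streak, rose by 2.54 ± 0.20 (adjusted p = 0.000355) and Mixl1, a streak homeobox factor, by 1.30 ± 0.18 (adjusted p = 0.00366).

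The other called genes of that list were less stable. T, the brachyury factor of the whole streak and notochord, had 294, 280 and 344 CPM in induced pools and 156, 214 and 166 CPM in control pools (0.77 ± 0.13, adjusted p = 0.00959), and was lost without control 1 (0.0571), control 3 (0.0577) or induced 3 (0.05003). Gsc, a homeobox factor of the anterior streak, had 5.91, 7.12 and 1.78 CPM in induced pools and 0.928, 0.404 and 0.536 CPM in control pools (3.03 ± 0.53, adjusted p = 0.0131), and was lost without control 2 (0.0663), control 3 (0.085) or induced 1 (0.0715). Evx1 and Snai1, called at 0.56 ± 0.10 and 0.65 ± 0.13, were each lost without control 2 (0.0596 and 0.0858) or control 3 (0.0679 and 0.107). Fgf8, a growth factor of the streak, was the member that did not pass (0.29 ± 0.29, adjusted p = 0.708).

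**Figure D1:**
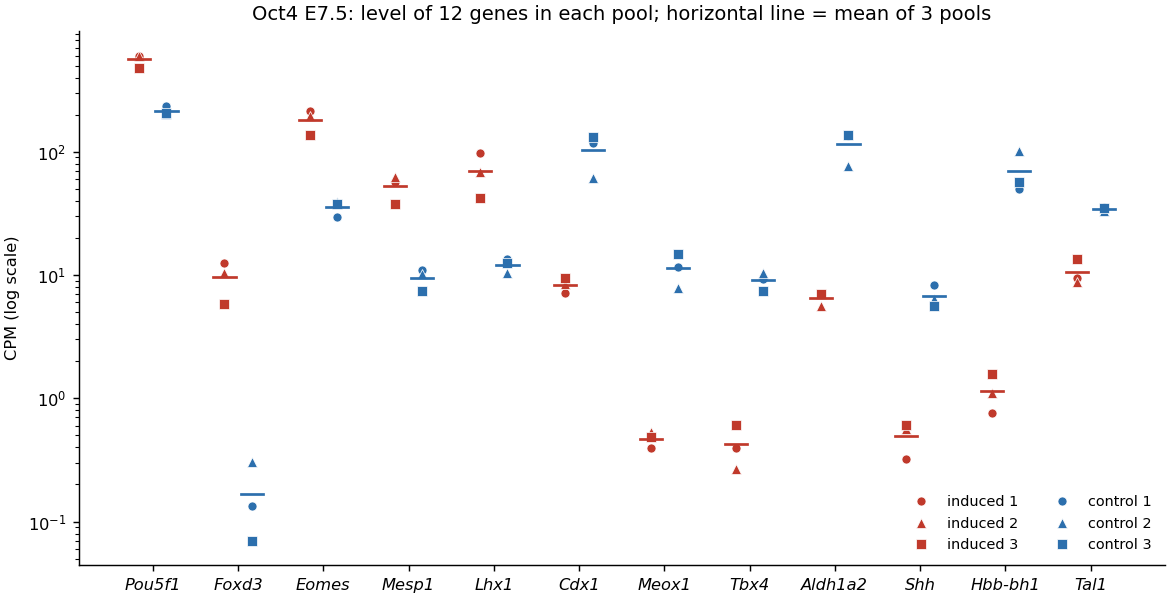
Levels in CPM on a log axis for 12 genes, with each induced pool (red, left) and control pool (blue, right) as a point and the mean of 3 pools as a line. Pou5f1, Foxd3, Eomes, Mesp1 and Lhx1 lie higher in induced pools, the other 7 genes lie lower, and the groups of no gene overlap.

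The Nodal pathway, which patterns the epiblast and drives the streak, rose at its ligand, its coreceptor Tdgf1 and several targets. Of 18 tested members 7 rose and none fell, with a median of 0.13. Nodal itself (chr10, 60880720 to 60888086) had 13.8, 13.1 and 9.05 CPM in induced pools and 1.79, 2.02 and 1.66 CPM in control pools (2.72 ± 0.20, adjusted p = 0.000244). Cer1, a secreted Nodal and BMP inhibitor, had 64.8, 49.4 and 47.5 CPM in induced pools and 26.7, 25.1 and 20.3 CPM in control pools (1.168 ± 0.15, adjusted p = 0.00225). No other member passed whichever library was left out. The feedback inhibitor Lefty1 had 6.32, 9.74 and 4.45 CPM in induced pools and 0.0331, 0.733 and 0.233 CPM in control pools (4.29 ± 0.63, adjusted p = 0.00738), lost without control 3 (0.0732) or induced 1 (0.0643). Lefty2, its neighbour in function, had 129, 111 and 120 CPM in induced pools and 3.51, 19.9 and 4.95 CPM in control pools. It did not pass (3.65 ± 0.73, adjusted p = 0.0649) although the groups did not overlap, the second control pool being the highest of its group.

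The coreceptor gene Tdgf1 showed the same high second control pool, with 150, 152 and 88.8 CPM in induced pools and 1.69, 7.63 and 1.91 CPM in control pools (5.10 ± 0.69, adjusted p = 0.0183). It was lost without control 3 (0.085), induced 1 (0.0864) or induced 2 (0.0765). Gdf3, a Nodal-related ligand, was lost without control 1, 2 or 3 or induced 3 (0.0581, 0.0553, 0.0817 and 0.0528). Pmepa1, a pathway target, was lost without control 1 (0.0864) or control 3 (0.072), and Pcsk6, a protease that processes the ligand, without any library but induced 1 (0.0619 to 0.17). The receptors Acvr1b, Acvr2a and Acvr2b and the signal carriers Smad2, Smad3 and Smad4 did not pass, with fold changes between -0.27 and 0.06.

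Genes of the primed epiblast, the tissue from which the streak forms, rose as well, with 7 of 13 tested members higher and none lower (median 0.79). Foxd3 (chr4, 99322990 to 99325362), a forkhead factor of the epiblast and later of the neural crest, had 12.6, 10.5 and 5.86 CPM in induced pools and 0.133, 0.303 and 0.07 CPM in control pools (5.81 ± 0.45, adjusted p = 0.000341). Fgf5 (chr5, 98683203 to 98706049), the growth factor by which primed epiblast is usually recognized, had 37.4, 30.8 and 18.4 CPM in induced pools and 3.02, 5.08 and 2.24 CPM in control pools (3.07 ± 0.36, adjusted p = 0.0029). Both were lowest in the third induced pool, and neither overlapped with the controls. Zic2 and Zic5, zinc finger factors of the epiblast and neural plate, rose by 1.26 ± 0.15 and 1.07 ± 0.10. Pim2, a kinase gene, rose by 1.45 ± 0.16, and Otx2, an anterior homeobox factor, by 0.79 ± 0.17. Dnmt3b, a de novo DNA methyltransferase, had 1682, 1120 and 1242 CPM in induced pools and 711, 708 and 600 CPM in control pools (adjusted p = 0.00528). Otx2 was lost without control 1, control 2, control 3 or induced 2 (0.0571, 0.121, 0.132 and 0.074), and the other 6 were kept in every fit without 1 library.

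Most genes of core and naive pluripotency did not pass, though the share called higher exceeded that of all genes. Of 23 tested members 6 rose and none fell (median 0.15), against 2.25% of all genes tested called higher. Utf1, a chromatin-bound factor of pluripotent cells, had 76.3, 74.6 and 72.8 CPM in induced pools and 28.6, 28 and 27.6 CPM in control pools (1.41 ± 0.08, adjusted p = 0.000171). The orphan receptor genes Esrrb and Nr0b1 rose by 1.25 ± 0.17 and 1.38 ± 0.19, while the nuclear receptor Nr5a2 read -0.50 ± 0.27. The factors Klf2, Klf4 and Klf5 lay between -0.14 and 0.14, and Zfp42 and Tbx3 read 0.49 ± 0.25 and -0.15 ± 0.09. Of the germ cell genes, which share many members with pluripotent cells, 2 of 9 were called, both lower, Kit (-0.99 ± 0.19, lost without control 1 at 0.0864, control 3 at 0.0629 or induced 3 at 0.0816) and Ifitm3 (-0.60 ± 0.14, lost without any library but control 2, up to 0.211). The primordial germ cell factors Prdm1 and Prdm14 read -0.50 ± 0.14 and 0.09 ± 0.32 and did not pass.

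Other signals of the gastrulating embryo moved in more than 1 direction. Among 15 tested Wnt ligands 3 rose and 3 fell. Wnt2b had 31.7, 28.3 and 31.8 CPM in induced pools and 12, 15.4 and 11.4 CPM in control pools (1.24 ± 0.13, adjusted p = 0.00107), and rose beside Wnt3. Wnt3a, the ligand of the late streak and tail bud, had 11.3, 10.2 and 14.1 CPM in induced pools and 25.8, 22.2 and 27.3 CPM in control pools (-1.08 ± 0.14, adjusted p = 0.00263). Wnt8a, another posterior ligand, fell by 1.47 on the log2 scale (-1.47 ± 0.16, adjusted p = 0.00139). Wnt3 was called in the opposite direction to Wnt3a and Wnt8a. Wnt2 (0.74 ± 0.14) and Wnt5a (-0.43 ± 0.09) were each lost without control 1 (0.075 and 0.105), control 3 (0.0853 and 0.131) or induced 3 (0.0694 and 0.0991).

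All 10 tested feedback targets of FGF signalling had positive fold changes (median 0.44), and 5 passed. Etv5, an ETS factor that reports FGF activity, had 199, 183 and 166 CPM in induced pools and 120, 124 and 118 CPM in control pools (0.59 ± 0.09, adjusted p = 0.00447). Spry2, a feedback inhibitor of receptor tyrosine kinases, had 47.5, 42.9 and 45.6 CPM in induced pools and 31.9, 26.9 and 29.9 CPM in control pools (0.62 ± 0.09, adjusted p = 0.0049). The pools of these genes lay close together within each group. Spry4 was lost without control 3 (0.0527), Dusp6 without control 2, control 3 or induced 3 (0.0786, 0.106 and 0.0668), and Etv4 without control 1, 2 or 3 (0.109, 0.0882 and 0.0536). Among the ligands, Fgf4 had 21.5, 22.4 and 16.4 CPM in induced pools and 11.4, 7.12 and 12.3 CPM in control pools (0.97 ± 0.21, lost without control 1, induced 1 or induced 2 at 0.0895, 0.0712 and 0.0678). Fgf17 was called lower (-1.21 ± 0.29) and lost without control 1 (0.163), control 3 (0.161), induced 2 (0.058) or induced 3 (0.15).

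Many genes of the later streak were lower. Of 15 tested genes of posterior streak and presomitic mesoderm 9 fell and 2 rose, with a median of -0.99. Cdx1, a caudal homeobox factor that activates Hox genes, had 7.18, 8.52 and 9.42 CPM in induced pools and 118, 60.8 and 132 CPM in control pools (-3.63 ± 0.30, adjusted p = 0.000896). Its paralogues Cdx4 and Cdx2 fell by 2.65 and 0.99 on the log2 scale (-2.65 ± 0.23 and -0.99 ± 0.15), with Cdx2 at 46.5, 57.9 and 66.4 CPM in induced pools and 128, 92.9 and 118 CPM in control pools. Cdx2 is also a gene of the trophoblast, so its level in whole embryos has a source outside the streak. Msgn1, the factor of presomitic mesoderm, fell by 3.23 on the log2 scale (-3.23 ± 0.31, adjusted p = 0.000762), while Tbx6, another presomitic factor, read -0.32 ± 0.15 and did not pass. Nkx1-2, a gene of the caudal epiblast, fell (-2.14 ± 0.32) and was lost without control 3 (0.0566) or induced 1 (0.119). Mesp2, which acts at forming somite borders, went against the list with 6.57, 6.95 and 4.08 CPM in induced pools and 1.43, 1.29 and 1.14 CPM in control pools (2.20 ± 0.24, adjusted p = 0.00117), as did Evx1.

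Of the genes called in any list, kept in every fit without 1 library and averaging at least 5 CPM in the higher group, 4 with an octamer in their RefSeq promoter (250 bases before to 50 after the start, GRCm38.p6) are shown, since Oct4 is known to bind these letters. They were chosen after their values were seen. Capitals mark ATGCAAAT or, on the other strand, ATTTGCAT, and each sequence runs in the direction of its gene. Pim2 was higher in induced pools, and Cdx2, Cdx4 and Aldh1a2 were lower.
Pim2: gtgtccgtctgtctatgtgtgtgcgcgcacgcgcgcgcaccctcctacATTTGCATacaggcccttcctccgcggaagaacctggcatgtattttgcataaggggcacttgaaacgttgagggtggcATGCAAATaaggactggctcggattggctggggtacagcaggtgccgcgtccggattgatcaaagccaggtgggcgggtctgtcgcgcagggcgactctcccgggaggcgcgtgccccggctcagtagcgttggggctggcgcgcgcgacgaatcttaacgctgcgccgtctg
Cdx2: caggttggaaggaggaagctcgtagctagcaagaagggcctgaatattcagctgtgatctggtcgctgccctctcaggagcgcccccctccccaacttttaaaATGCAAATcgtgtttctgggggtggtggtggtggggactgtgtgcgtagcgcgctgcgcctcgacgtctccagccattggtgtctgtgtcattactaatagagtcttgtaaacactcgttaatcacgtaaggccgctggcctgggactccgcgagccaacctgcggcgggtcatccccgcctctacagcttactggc
Cdx4: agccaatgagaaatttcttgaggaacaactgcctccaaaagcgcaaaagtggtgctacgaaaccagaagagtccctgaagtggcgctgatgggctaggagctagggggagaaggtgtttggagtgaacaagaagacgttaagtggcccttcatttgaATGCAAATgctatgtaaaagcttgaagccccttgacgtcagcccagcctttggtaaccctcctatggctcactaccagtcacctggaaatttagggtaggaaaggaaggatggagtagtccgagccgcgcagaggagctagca
Aldh1a2: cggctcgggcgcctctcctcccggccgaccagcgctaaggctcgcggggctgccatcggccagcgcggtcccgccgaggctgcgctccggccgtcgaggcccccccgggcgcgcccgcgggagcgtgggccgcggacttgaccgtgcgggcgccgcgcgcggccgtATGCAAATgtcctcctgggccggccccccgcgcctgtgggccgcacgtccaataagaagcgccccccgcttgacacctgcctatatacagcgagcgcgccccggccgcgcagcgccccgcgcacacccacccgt
The Pim2 promoter (chrX:7878056-7878355, plus strand) held 2 octamers, the first starting at position -202 from the start. Cdx2 (chr5:147307200-147307499, minus strand), Cdx4 (chrX:103321148-103321447, plus strand) and Aldh1a2 (chr9:71215539-71215838, plus strand) held 1 each, starting at -147, -93 and -84. Over all RefSeq promoters of that length, 570 of 32851 (1.735%) held an octamer on either strand. The 4 shown were picked and do not stand for the directions of the rest. Of the tested genes matched to a RefSeq promoter, 9 of 257 called higher and 4 of 412 called lower held an octamer, against 187 of 10637 in all. A comparison of these shares is void, since only 10637 of 15895 tested genes with a symbol were matched, and a run of letters is a description, not a binding site.

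Hox genes, which give position along the body axis and switch on in order from the 3′ end of each cluster, fell in all 4 clusters. Of 30 tested members 23 fell and none rose, with a median of -2.36 and 28 negative values. In the Hoxb cluster all 9 tested genes fell, between -1.61 and -3.89, and in the Hoxc cluster all 4. In the Hoxa and Hoxd clusters 5 of 9 and 5 of 8 fell. Hoxb1 had 18.1, 15.4 and 27.6 CPM in induced pools and 62.1, 52 and 71.7 CPM in control pools (-1.61 ± 0.21, adjusted p = 0.00322), and Hoxd9, a posterior paralogue, had 1.8, 2.43 and 2.02 CPM in induced pools and 7.06, 7.63 and 7.79 CPM in control pools (-1.85 ± 0.16, adjusted p = 0.000466). Anterior and posterior paralogues were thus both among the lower genes, with no overlap of pools in either. Hoxc5 had no count in any induced pool and 0.398, 0.303 and 0.467 CPM in control pools, at least 13-fold lower against 3 counts over the induced group.

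The Hox genes that did not pass were Hoxa7, Hoxa9, Hoxa10 and Hoxa11 and Hoxd10, Hoxd11 and Hoxd13. Hoxa7 and Hoxa9 read -1.40 ± 0.38 and -1.09 ± 0.32. Hoxa10 had a mean of 5.72 CPM in induced pools and 9.02 CPM in control pools (-0.65 ± 0.16, adjusted p = 0.0536), and Hoxa11 had 4.58 and 5.16 CPM (-0.16 ± 0.22). Hoxd10 and Hoxd11 had the only positive values of the list, 0.49 ± 0.34 and 0.38 ± 0.32. Hoxa13, the most posterior of its cluster, was called lower (-1.81 ± 0.37) and lost without control 1, 2 or 3 (0.0682, 0.0692 and 0.0958), and Hoxb2 was lost without control 1 (0.0658), control 3 (0.0639) or induced 1 (0.0922). All 7 uncalled genes were of paralogue groups 7 and above, and the groups overlapped for Hoxa11, Hoxd10, Hoxd11 and Hoxd13. Hoxa10 is also on the list of maternal decidua genes given below, and a maternal source of its RNA was not tested.

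**Figure D2:**
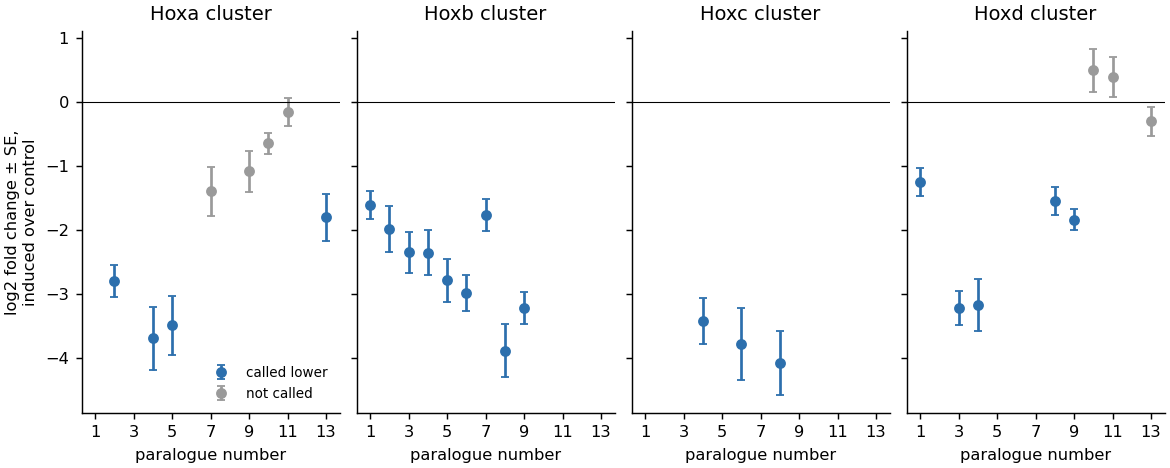
Log2 fold change of induced over control pools (points, with SE as bars) of tested Hox genes by paralogue number, 1 panel per cluster, without Hoxc5, which had no count in induced pools, and without genes not reported here. Blue points were called lower and grey points were not called, and the grey points of the Hoxa and Hoxd clusters are paralogues 7 and above.

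Retinoic acid, made in the trunk mesoderm, is a signal that turns on 3′ Hox genes. Of 16 tested genes of its pathway 4 fell and none rose (median -0.54). Aldh1a2 (chr9, 71063596 to 71144050), the enzyme that makes it in the embryo, had 6.89, 5.61 and 6.95 CPM in induced pools and 134, 77.3 and 137 CPM in control pools (-4.16 ± 0.24, adjusted p = 0.000181). The target and receptor gene Rarb fell by 2.33 on the log2 scale (-2.33 ± 0.27), and the binding protein genes Crabp2 and Crabp1 by 2.32 and 1.03 (-2.32 ± 0.21 and -1.03 ± 0.16). All 4 were kept in every fit without 1 library. Cyp26a1, which breaks retinoic acid down in the early embryo, read 0.55 ± 0.14 and did not pass (adjusted p = 0.056), nor did the other receptors Rara (-0.18 ± 0.09) and Rarg (-0.38 ± 0.15).

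Hedgehog signalling showed a lower ligand of the node and notochord, Shh, and lower targets beside a higher coreceptor. The tissue in which the targets were lower was not measured. Shh (chr5, 28783355 to 28793641) had 0.32, 0.564 and 0.606 CPM in induced pools and 8.25, 6.44 and 5.64 CPM in control pools (-3.80 ± 0.27, adjusted p = 0.000243). The pathway targets Hhip and Gli1 fell by 2.16 and 1.30 on the log2 scale (-2.16 ± 0.29 and -1.30 ± 0.19). Gas1 (chr13, 60275766 to 60278726), a coreceptor that Hedgehog signalling is known to repress, had 76.7, 85.7 and 70.5 CPM in induced pools and 36, 33.9 and 33 CPM in control pools (1.18 ± 0.10, adjusted p = 0.00037). It was the only one of 12 tested members that rose, against 5 that fell, and 11 of the 12 values were negative. The target Ptch1 (-0.76 ± 0.14) and the coreceptor Boc (-0.95 ± 0.19) were lost without control 1 (0.079 and 0.092), control 3 (0.0533 and 0.0883) or induced 3 (0.0623 and 0.0883). Other genes of the node and notochord were called in both directions. Mnx1, a gene of the notochord and other tissues described below, fell as Shh did. Foxj1, the factor of motile cilia, rose (0.77 ± 0.12), Chrd, a BMP inhibitor, rose (0.87 ± 0.16, lost without control 1 at 0.0557 or control 3 at 0.0686), and Foxa2 and Noto read 0.42 ± 0.13 and -0.46 ± 0.18 without passing.

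Mesoderm of the lateral plate, limb and allantois held the largest share of lower genes of the 53 lists, 13 of 16 tested with none higher and a median of -1.57, and 11 to 13 were called when 1 library was left out. Tbx4 (chr11, 85699924 to 85729599), a T-box factor of the allantois and hindlimb, had 0.394, 0.267 and 0.606 CPM in induced pools and 9.31, 10.4 and 7.42 CPM in control pools (-4.45 ± 0.27, adjusted p = 0.000181). Vcam1, an adhesion molecule of the allantois, had 0.246, 0.237 and 0.364 CPM in induced pools and 1.56, 1.97 and 1.68 CPM in control pools (-2.64 ± 0.27, adjusted p = 0.00104). The homeobox genes Isl1, Prrx2 and the T-box gene Tbx2 fell by 1.47, 2.02 and 1.55 on the log2 scale (-1.47 ± 0.16, -2.02 ± 0.24 and -1.55 ± 0.18). Bmp4, a ligand of extraembryonic mesoderm and ectoderm, read -0.21 ± 0.15, and Hand2 and Wt1 read -0.36 ± 0.16 and 0.30 ± 0.17, so that not all genes of these tissues passed.

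Most tested heart factors fell although the earliest cardiac mesoderm gene, Mesp1, rose. Of 14 tested cardiac transcription factor genes 10 fell and none rose (median -1.32). Tbx1, of the second heart field and pharynx, had 0.221, 0.178 and 0.404 CPM in induced pools and 3.61, 2.68 and 2.92 CPM in control pools (-3.56 ± 0.31, adjusted p = 0.000438). Tbx5, of the first heart field, had 0.0738, 0.119 and 0.121 CPM in induced pools and 1.56, 0.707 and 1.33 CPM in control pools (-3.50 ± 0.44, adjusted p = 0.00234), and Mef2c fell by 1.47 on the log2 scale (-1.47 ± 0.20). Gata4 and Gata6, which visceral endoderm expresses too, read 0.27 ± 0.09 and -0.31 ± 0.11 and did not pass. Of 13 tested sarcomere genes 4 fell, Tnni1 (-1.85 ± 0.21), Myh7 (-2.22 ± 0.26), Tnnt2 (-2.94 ± 0.45) and Myl4 (-1.42 ± 0.26), the last of them lost without control 1, control 3 or induced 3 (0.0542, 0.0541 and 0.0614). Myl7, an atrial myosin light chain, went the other way, with 23.9, 23.6 and 21.9 CPM in induced pools and 13.8, 12.6 and 11.2 CPM in control pools (0.89 ± 0.11, adjusted p = 0.00222).

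Many blood and vessel genes were lower. Of 13 tested blood transcription factor genes 9 fell and none rose (median -1.10). Tal1 (chr4, 114729031 to 114744360), the master factor of blood formation, had 9.52, 8.7 and 13.5 CPM in induced pools and 35.8, 33.1 and 34.9 CPM in control pools (-1.72 ± 0.16, adjusted p = 0.000579). Ikzf1, a factor of blood progenitors, had 2.81, 3.18 and 3.15 CPM in induced pools and 8.82, 10.1 and 9.07 CPM in control pools (-1.62 ± 0.14, adjusted p = 0.000416). Lmo2, a partner of Tal1, fell by 1.10 on the log2 scale (-1.10 ± 0.11), and the erythroid factors Klf1 and Gfi1b by 3.40 and 2.80 (-3.40 ± 0.26 and -2.80 ± 0.28). Among 18 tested globin and red cell genes 8 fell. Hbb-bh1, the early embryonic beta globin, had 0.763, 1.1 and 1.58 CPM in induced pools and 50.1, 101 and 57 CPM in control pools (-5.98 ± 0.39, adjusted p = 0.000378).

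Adult globins differed by pool number and not by group. Hbb-b1 had 78, 187 and 76.6 CPM in induced pools and 45.9, 185 and 88.5 CPM in control pools (0.10 ± 0.67, adjusted p = 0.972), and Hba-a1 had 86.4, 236 and 89.9 CPM in induced pools and 56.9, 220 and 109 CPM in control pools (0.10 ± 0.69, adjusted p = 0.972). The second pool was the highest of each group. Reads of these near-identical globin genes may be split between copies, and maternal blood in the dissection was not tested as their source. Against 2.25% of all genes tested, 3 of 9 genes of maternal blood and immune cells were called higher, Prf1, Gzma and S100a9 (1.36 ± 0.25, 0.94 ± 0.23 and 1.45 ± 0.35). Each was lost without some library, Prf1 without control 1 (0.0592) or control 2 (0.0524), Gzma without any but induced 3 (0.0853 to 0.14), and S100a9 without control 1 (0.125), control 3 (0.177), induced 2 (0.0936) or induced 3 (0.129). The summed level of all 12 matched genes was 10.8 to 18.8 CPM in induced pools and 9.02 to 14.7 CPM in control pools.

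Of 20 tested endothelial genes 11 fell and none rose (median -0.97). Tek (chr4, 94405980 to 94541667), the angiopoietin receptor, had 3.47, 3.27 and 3.68 CPM in induced pools and 11.7, 12.2 and 12 CPM in control pools (-1.79 ± 0.12, adjusted p = 0.000226). Pecam1, an adhesion protein of endothelium, had 3.81, 3.83 and 4 CPM in induced pools and 10.3, 11.8 and 11.2 CPM in control pools (-1.52 ± 0.13, adjusted p = 0.000378). The pools of each group lay close together in both genes. The VEGF receptor genes Kdr and Flt1, which mark the progenitors as well, did not pass (adjusted p = 0.672 and 0.996), while Flt4 read -0.98 ± 0.26 (adjusted p = 0.0633). Growth factor Vegfa was called lower (-0.55 ± 0.11) and lost without control 1, 2 or 3 (0.0702, 0.0653 and 0.103).

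Somite and Notch genes were called in both directions. Of 12 tested genes of paraxial mesoderm and somites 3 fell and 2 rose. Pax9 and Tcf15, factors of the sclerotome and of early somite epithelium, fell (-2.29 ± 0.26 and -2.53 ± 0.32). Dll3, a Notch ligand-like protein of the presomitic mesoderm, had 46.4, 45.1 and 46.8 CPM in induced pools and 20, 22.6 and 23.7 CPM in control pools (1.06 ± 0.09, adjusted p = 0.000416). Of 17 tested Notch pathway genes 4 fell and 2 rose, and the vascular members, the ligand Dll4 and the target Hey2, were among those that fell (-2.32 ± 0.29 and -1.56 ± 0.21). Lfng and Hes7, which oscillate in the presomitic mesoderm, were called in opposite directions (0.61 ± 0.12 and -1.10 ± 0.22) and were lost without control 3 (0.11 and 0.0815), Lfng also without control 2 (0.0803) and Hes7 without control 1 (0.0907).

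BMP signals and Wnt feedback genes were mixed as well. Among 12 tested BMP ligands and inhibitors, the ligand Bmp5 fell (-1.41 ± 0.17) and the inhibitor Fst rose, with 124, 105 and 122 CPM in induced pools and 73.6, 59.4 and 53 CPM in control pools (0.92 ± 0.13, adjusted p = 0.00345). Of 8 BMP targets 2 were called lower, Smad6 (-0.45 ± 0.09) and Id3 (-0.48 ± 0.10), both lost without control 3 (0.0989 and 0.0941), Smad6 also without control 2 (0.064) and Id3 without control 1 (0.0758) or induced 3 (0.11), while Id1 and Id2 read -0.27 and -0.19. Among 12 Wnt feedback targets Sp5, a direct target in the streak, had 75, 74.8 and 56.6 CPM in induced pools and 36.6, 31.7 and 34.4 CPM in control pools (1.01 ± 0.12, adjusted p = 0.00198), and Notum, which inactivates Wnt proteins, fell (-1.30 ± 0.20). Axin2, the usual reporter of the pathway, read -0.24 and did not pass, so the targets did not move as a group.

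Ectodermal genes were lower in part. Hes3, a repressor of the midbrain and hindbrain neural plate, had 0.0984, 0.0297 and 0.0404 CPM in induced pools and 8.32, 4.14 and 8.33 CPM in control pools (-6.76 ± 0.47, adjusted p = 0.000226). Gbx2, which sets the hindbrain side of the midbrain boundary, had 14.8, 13.6 and 19.5 CPM in induced pools and 63.2, 40 and 59.2 CPM in control pools (-1.76 ± 0.19, adjusted p = 0.00124), and 5 of 10 tested genes of midbrain, hindbrain and spinal cord fell. Pax2, of the midbrain boundary and intermediate mesoderm, was the other member of that list kept without any 1 library (-2.23 ± 0.33). Of 11 tested forebrain and eye field genes 6 fell and 2 rose. Dmbx1 and Foxd4 fell by 3.85 and 1.76 on the log2 scale (-3.85 ± 0.43 and -1.76 ± 0.21). The other 4 lower genes of that list, Six3, Hesx1, Lhx2 and Lhx5, and the 2 higher ones, Otx2 and Otx1, were each lost without at least 1 library. Six3 reached 0.0711, 0.0672 and 0.0697 without control 1, control 3 or induced 3, and Hesx1 0.0558 without induced 3. Lhx2 reached 0.0855, 0.0574, 0.071 and 0.0823 without control 1, 2 or 3 or induced 3, and Lhx5 0.109, 0.0816 and 0.0592 without control 1, control 3 or induced 1. Otx1 was lost without any library but induced 2, up to 0.156. None of the 4 tested genes of POU class III and neural Sox passed, Sox3 being the nearest with 15.5 CPM in induced pools and 26.6 CPM in control pools on average (-0.77 ± 0.20, adjusted p = 0.0533).

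Of 11 tested genes of neural crest and head mesenchyme 5 fell and 1, Foxd3, rose. The crest factors Sox9 (-0.74 ± 0.19, adjusted p = 0.0494) and Alx4 (-1.27 ± 0.26) were among the 5, both lost without control 1, control 3 or induced 3 (0.173, 0.146 and 0.102 for Sox9, 0.0819, 0.0958 and 0.069 for Alx4), and Sox9 also without induced 1 (0.0546) or induced 2 (0.0749). Of 11 neuronal differentiation genes 4 fell and 1 rose, Dcx, a microtubule protein of young neurons, with 4.18, 3.47 and 2.99 CPM in induced pools and 1.33, 1.44 and 1.19 CPM in control pools (1.43 ± 0.20, adjusted p = 0.00357). Mnx1, a homeobox gene of motor neurons, notochord and gut endoderm, fell (-3.06 ± 0.32).

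Genes of mesenchyme and matrix were lower in part. Of 12 tested mesenchymal genes 6 fell, the receptor genes Pdgfrb (-1.80 ± 0.17) and Pdgfra (-0.55 ± 0.08), the factors Snai2 (-1.90 ± 0.22), Twist2 (-1.78 ± 0.23) and Zeb1 (-1.13 ± 0.16), and the filament Vim (-0.78 ± 0.11), and all 6 were kept without any 1 library. Snai1, the streak factor of the same list, rose and was lost without control 2 (0.0858) or control 3 (0.107). Of 35 tested collagen genes 9 fell and none rose (median -0.35). Col1a1, of fibrillar collagen, had 16.6, 13.8 and 17.5 CPM in induced pools and 42.6, 40.7 and 51.5 CPM in control pools (-1.50 ± 0.13, adjusted p = 0.000416). Col5a1, Col4a5 and Col4a6 fell by 1.06, 1.66 and 1.52 on the log2 scale (-1.06 ± 0.14, -1.66 ± 0.23 and -1.52 ± 0.23). The count of called collagens was 4 to 8 when 1 library was left out. Epcam, of epithelium, was called higher (0.42 ± 0.08) and Dsp, of desmosomes, lower (-0.44 ± 0.09), and each was lost without control 1 (0.0781 and 0.0819) or control 3 (0.111 and 0.0815), Dsp also without control 2 (0.0509) or induced 3 (0.105).

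Of 16 tested imprinted genes that act on growth, 7 fell and none rose, and all 16 fold changes were negative (median -0.39). Dlk1 (chr12, 110691033 to 110701546), a paternally expressed membrane protein, had 33.6, 39.5 and 41.1 CPM in induced pools and 97.7, 106 and 103 CPM in control pools (-1.43 ± 0.10, adjusted p = 0.000226). Igf2, the embryonic growth factor, had 436, 559 and 571 CPM in induced pools and 862, 943 and 919 CPM in control pools (-0.80 ± 0.11, adjusted p = 0.00393). Mest and Ndn fell by 0.81 and 0.80 on the log2 scale (-0.81 ± 0.10 and -0.80 ± 0.12). Paternally and maternally expressed genes were both among the 7, since Igf2r (-0.47 ± 0.08, lost without control 1 at 0.0538, control 3 at 0.0755 or induced 3 at 0.0687) and Cdkn1c (-0.53 ± 0.12, lost without control 1, control 2, induced 1 or induced 2 at 0.123, 0.112, 0.0587 and 0.0519) are expressed from the maternal copy. H19 and Meg3, the noncoding neighbours of Igf2 and Dlk1, read -0.19 ± 0.14 and -0.12 ± 0.27 and did not pass.

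Of 21 tested genes of amino acid supply and Atf4 targets 7 rose and none fell (median 0.30, 19 positive values). Slc7a3, a transporter of cationic amino acids, had 111, 78.2 and 69.5 CPM in induced pools and 19.6, 24.1 and 19.5 CPM in control pools (2.03 ± 0.18, adjusted p = 0.000449), and Cth, an enzyme of cysteine synthesis, rose by 0.74 ± 0.11. Those 2 and Slc7a11 passed whichever library was left out. Pmaip1, a gene of apoptosis, was the only called member of 17 p53 targets and cell death genes, with 84.7, 93.1 and 76.4 CPM in induced pools and 22.4, 25.9 and 20.8 CPM in control pools (1.88 ± 0.12, adjusted p = 0.000181). Of 23 tested genes of hypoxia and glycolysis 2 rose and 4 fell. Pdk1, a kinase that limits pyruvate use, had 102, 104 and 114 CPM in induced pools and 75.3, 66 and 67.8 CPM in control pools (0.61 ± 0.09, adjusted p = 0.00389). The glucose transporter genes Slc2a1 and Slc2a3 fell (-0.74 ± 0.13 and -0.41 ± 0.09) and were lost without control 1 (0.0571 and 0.0594) or control 3 (0.0537 and 0.123), Slc2a3 also without control 2 (0.0813) or induced 3 (0.0697). Of 76 tested cytosolic ribosomal protein genes 73 had positive fold changes, with a median of 0.14 against 0.02 over all genes tested. Only 1 passed, Rps3a (0.48 ± 0.10, lost without any 1 of the control pools or induced 3, up to 0.108). In many ribosomal protein genes the second induced pool was the highest induced pool, such as Rps12 with 1357, 2041 and 1632 CPM in induced pools and 1303, 1594 and 1563 CPM in control pools. Of 27 tested cell cycle genes 1 passed, Ccnd2, a D-type cyclin, with 122, 63 and 108 CPM in induced pools and 208, 175 and 219 CPM in control pools (-1.04 ± 0.22, lost without any library but induced 2, up to 0.119). None of 59 nuclear respiratory chain genes, 13 mitochondrially encoded genes, 14 heat shock genes, 15 lysosomal genes or 10 immediate early genes passed.

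Extraembryonic tissues make up much of a whole embryo at E7.5, and the counts of their lists stand against 6.17% of all genes called. Of 18 tested genes of visceral endoderm and yolk sac 1 passed, the endocytic receptor gene Lrp2 (-0.52 ± 0.10, lost without control 2, control 3 or induced 3 at 0.0595, 0.0818 and 0.0871), and the summed level of the list was 5749 to 7045 CPM in induced pools and 6054 to 7652 CPM in control pools. Afp and Ttr, secreted by that tissue, read -0.01 ± 0.12 and -0.17 ± 0.12. The trophoblast list summed to 186 to 301 CPM in induced pools and 230 to 356 CPM in control pools, with Ctsq and Ctsj, genes of differentiated trophoblast, at 0 in all 6 pools. Of its 14 tested genes 1 fell, Dlx3 (-1.24 ± 0.15, adjusted p = 0.0018). Of 12 tested genes of parietal endoderm and basement membrane 2 fell, Plat, the tissue plasminogen activator (-1.88 ± 0.14, adjusted p = 0.000251), and Lama1 (-0.67 ± 0.16, lost without any library but control 3, up to 0.173). Of 11 tested definitive endoderm genes 2 passed, with Cer1 and Trh (0.71 ± 0.10) called higher and Sox17 and Hhex at 0.15 ± 0.10 and 0.15 ± 0.15. None of 11 maternal decidua genes passed, and their summed level of 168 to 201 CPM in induced pools overlapped with 133 to 212 CPM in control pools. Prl8a2 held the largest part of that sum, with 105, 78.6 and 108 CPM in induced pools and 59.2, 58.3 and 111 CPM in control pools. Whether the amount of maternal tissue differed between the groups was not tested. The plot of called shares sets the lists side by side.

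**Figure D3:**
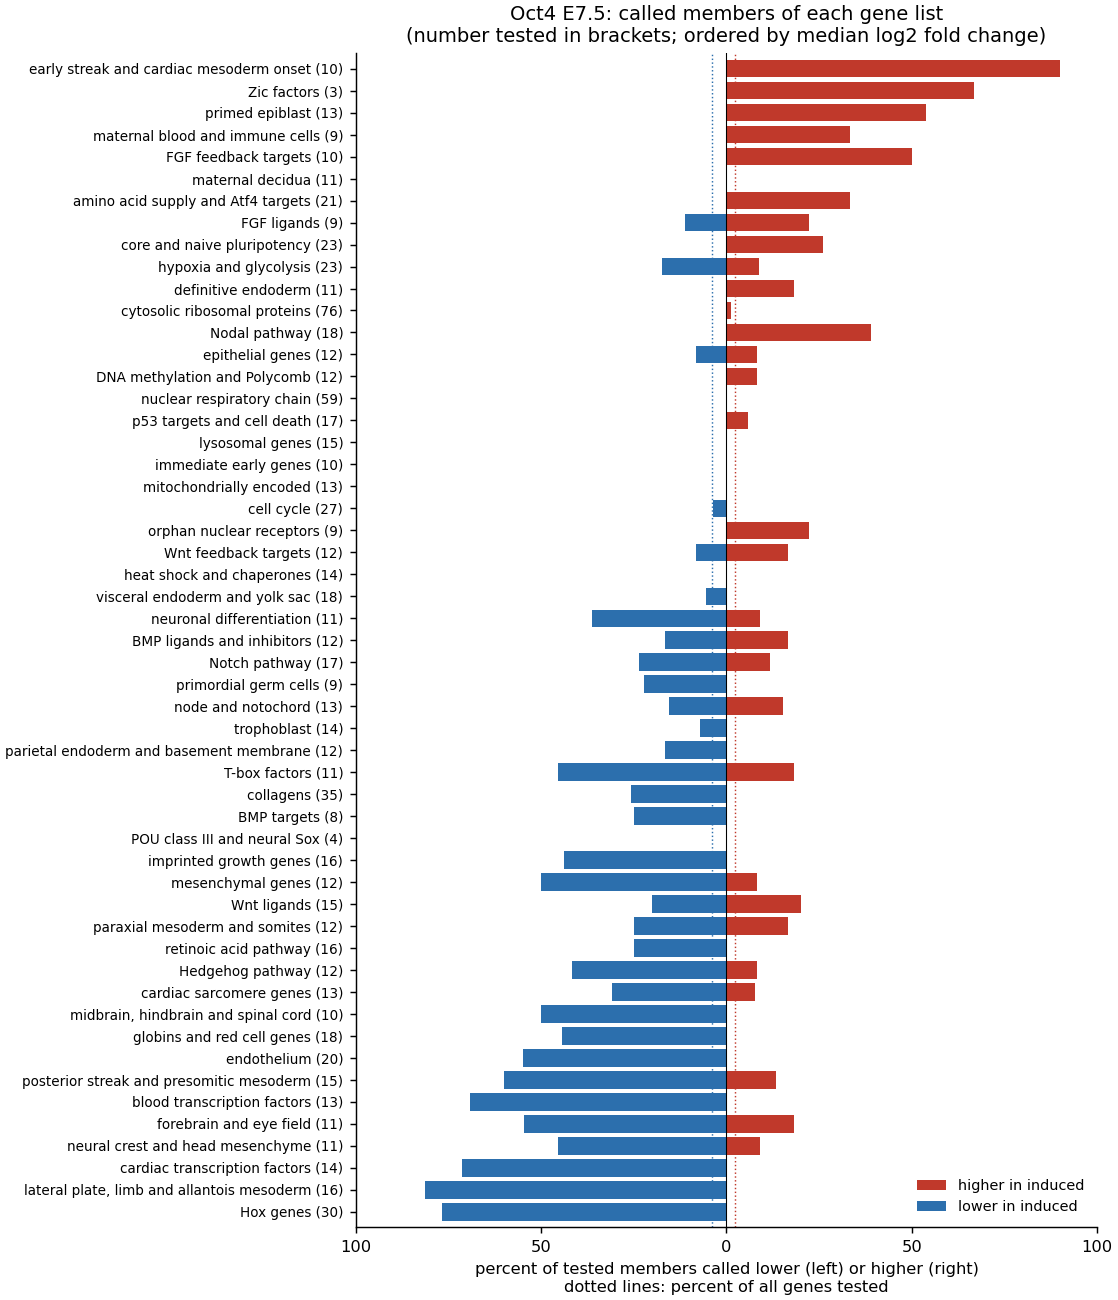
Percent of the tested members of each gene list that were called higher (red, right) or lower (blue, left) in induced pools, ordered by median log2 fold change, with the number tested in brackets. Dotted lines mark the shares over all genes tested, 2.25% higher and 3.91% lower, and the lists of early streak and primed epiblast lie at the top, those of Hox genes, lateral plate mesoderm and heart factors at the bottom.

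Some genes named by size belong to no list. C1ql2, a secreted C1q-like protein, had 10.4, 10.5 and 6.91 CPM in induced pools and 0.862, 0.581 and 0.63 CPM in control pools (3.77 ± 0.24, adjusted p = 0.000204), and Slc35d3, a sugar transporter-like gene, had 12.7, 8.52 and 8 CPM in induced pools and 2.35, 2.35 and 2.03 CPM in control pools (2.12 ± 0.21, adjusted p = 0.000769). L1td1, an RNA-binding protein of pluripotent cells, had 185, 210 and 180 CPM in induced pools and 85, 101 and 85.8 CPM in control pools (1.08 ± 0.10, adjusted p = 0.000616). In all 3 genes the groups did not overlap. On the lower side, Arg1, an arginase, had 0.517, 0.95 and 0.647 CPM in induced pools and 14.3, 8.97 and 16.1 CPM in control pools (-4.22 ± 0.30, adjusted p = 0.000226), and Svep1, an extracellular matrix protein, fell by 2.81 on the log2 scale (-2.81 ± 0.29). Greb1l, a gene needed for kidney development, had 84, 70 and 91.7 CPM in induced pools and 214, 156 and 211 CPM in control pools (-1.25 ± 0.14, adjusted p = 0.00163). Meox1, a somite homeobox factor, had 0.394, 0.534 and 0.485 CPM in induced pools and 11.6, 7.91 and 14.8 CPM in control pools (-4.60 ± 0.29, adjusted p = 0.000181).

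The pools of a group were not equal. Of the 362 higher genes, the third induced pool was the lowest induced pool for 178 (49.2%, against 22.8% of all genes tested), and the first was the highest for 209 (57.7%, against 38.6%). Of the 629 lower genes, the second induced pool was the lowest for 372 (59.1%, against 40.4%) and the third the highest for 307 (48.8%, against 21.9%). Pou5f1 had 597, 603 and 480 CPM in these pools, and a link of pool order to Pou5f1 was not tested. Of the same 629 genes, the second control pool was the lowest control for 389 (61.8%, against 36.4%). The second control pool thus lay nearer to the induced pools than the other controls for most of the lower genes. Embryos of a pool can differ in exact stage, and how far the pools differ in stage was not tested.

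The controls of the Nanog line, which share no library with the comparison above, were compared between E9.5 and E7.5 for the called genes. Stage was not the only difference between these controls. The shortest gene models, defined below, took 31.3 and 36.8 CPM at E7.5 and 1.7 and 1.42 CPM at E9.5. The part of library preparation in the stage difference was not tested. Of all 14496 genes tested in both comparisons, 10.9% were called and at least 2-fold higher and 12.8% at least 2-fold lower at E9.5 than at E7.5, with 2 pools per stage. The stage test itself called 63.8% of 14872 genes, 12.7% higher and 12.5% lower by at least 2-fold. Of the 599 genes lower in induced Oct4 embryos, 235 (39.2%) were at least 2-fold higher and 85 (14.2%) at least 2-fold lower at E9.5, and the median stage difference was 0.69. Of the 310 genes higher in induced embryos, 49 (15.8%) were at least 2-fold higher and 118 (38.1%) at least 2-fold lower at E9.5, with a median of -0.51. At the 2-fold cut, both sets held a larger share of genes that differed with stage in either direction than all genes did. Without that cut, 28.1% of the higher set were called higher and 51.6% lower at E9.5. The lower set had 56.8% and 23.4%, against 30.5% and 32.8% of all genes. The medians of the 2 sets lay on opposite sides of 0, and no test was made of these shares. Eomes and Mesp1 lay 7.21 and 6.85 lower at E9.5 on the log2 scale (-7.21 and -6.85), and Hbb-bh1 and Hoxb9 lay 5.07 and 4.27 higher. Both sets held genes that went the other way. Cdx1, Msgn1 and Aldh1a2, lower in induced embryos, were also lower at E9.5 (-4.90, -4.36 and -1.40), and Gas1 and Foxd3, higher in induced embryos, were also higher at E9.5 (1.81 and 2.83).

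**Figure D4:**
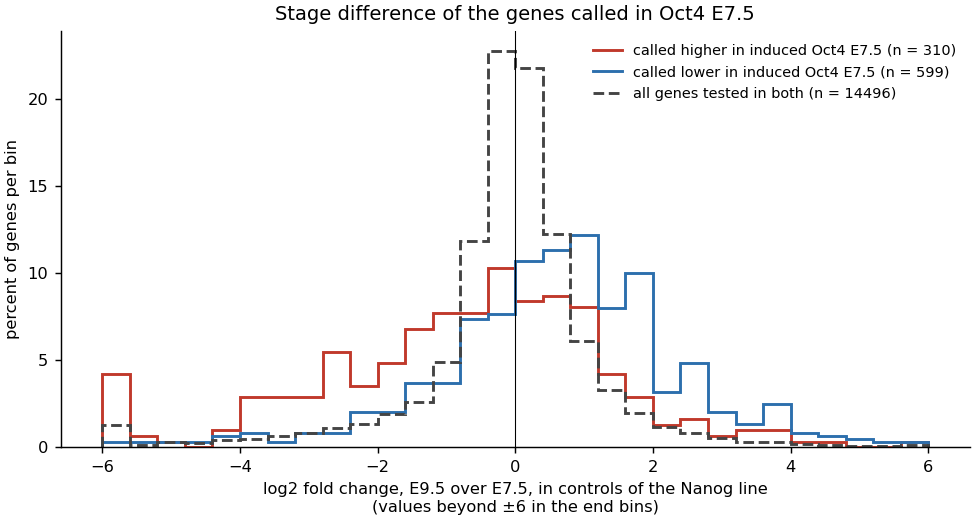
Distribution of the stage difference, E9.5 over E7.5 on the log2 scale in controls of the Nanog line (x axis), as percent of genes per bin (y axis), for the 310 genes called higher (red) and the 599 called lower (blue) in induced Oct4 E7.5 pools and for all 14496 genes tested in both (dashed). The red line lies further to the left and the blue line further to the right than the dashed one.

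The response was also set against that of Nanog induction at the same stage, in its own line with its own controls (3 induced and 2 control pools, doxycycline from E4.5). Doxycycline was shared and Pou5f1 RNA was high after both inductions, so this contrast cannot show whether a response was particular to Oct4. Scaled over all 22 libraries, Pou5f1 averaged 603 ± 74.5 CPM in Oct4 induced and 233 ± 18.9 CPM in Oct4 control pools (SD, n = 3 each), against 552 ± 70.2 CPM in Nanog induced (n = 3) and 236 ± 17.2 CPM in Nanog control pools (n = 2), so that Pou5f1 RNA was high after either induction at this stage. Nanog averaged 30.1 CPM in Oct4 induced and 19.7 CPM in Oct4 control pools, against 96.1 CPM in Nanog induced and 20.2 CPM in Nanog control pools. The difference between the responses was called for 34 of 16680 genes (0.204%), 23 (0.138%) with a higher and 11 (0.0659%) with a lower value under Oct4, and 1696 had an unadjusted p under 0.05. Several of the 23 are short mitochondrial tRNA genes or pseudogenes, such as mt-Te, whose mean level was 9.71 CPM in Oct4 induced pools and 10.8 CPM in Oct4 control pools, against 0.0128 CPM in Nanog induced pools and 11.3 CPM in Nanog control pools. Gene models shorter than 80 bases together took 29.05 to 51.9 CPM in the Oct4 E7.5 libraries and 0.575 to 1.13 CPM in the Nanog induced libraries, against 31.3 to 36.8 CPM in the Nanog control libraries, and the part of library preparation in this was not tested.

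Among genes of ordinary length, Pecam1 fell under Oct4 (-1.52 ± 0.13) and read 0.45 ± 0.26 under Nanog, with 19.8 CPM in Nanog induced pools and 14.4 CPM in Nanog control pools. Its difference was -1.98 ± 0.29 (adjusted p = 0.014) and remained called in 10 of 11 fits without 1 library. Of the 20 endothelial genes it was the only one called, and Tek fell under both (-1.79 ± 0.12 under Oct4 and -2.14 ± 0.25 under Nanog, where 7.78% of 14118 genes were called). Dlx3 also differed (-2.03 ± 0.33, adjusted p = 0.0301), with 2.87 CPM in Oct4 induced and 6.77 CPM in Oct4 control pools against 10.7 CPM in Nanog induced and 6.21 CPM in Nanog control pools, and was called in 3 of 11 fits without 1 library. Tcte2, a testis-expressed gene, was called higher under Oct4 (0.49 ± 0.11, up to 0.127 without 1 library) and fell under Nanog (-1.11 ± 0.13), a difference of 1.59 ± 0.17 (adjusted p = 0.00108) called in all 11 fits. For the Hox list, the early streak list and the primed epiblast list no member was called for a difference between the inductions, and the lists had medians of -2.36, 1.83 and 0.79 under Oct4 and -2.64, 2.05 and 1.07 under Nanog. Each median under Nanog covers only members tested there, which leaves out Hoxa4, Hoxa7, Hoxa13, Hoxc5, Hoxc6 and Hoxd4. A p that misses the threshold does not show equal responses, with 2 Nanog control pools of 6.59 and 8.54 M counts.

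The later induction of the same line, from E6.5 to E9.5 with its own controls, called 9.29% of 13957 genes. The difference between the responses at both stages was called for 1094 of 16359 genes (6.69%), 303 (1.85%) higher and 791 (4.84%) lower at E7.5, and 3079 had an unadjusted p under 0.05. Hoxb9, of the trunk, was called lower at E7.5 (-3.23 ± 0.25) and higher at E9.5 (0.57 ± 0.10), a difference of -3.78 ± 0.25 (adjusted p = 1.06e-06). Tek read -0.16 ± 0.08 and Pecam1 -0.13 ± 0.07 at E9.5 without passing, differences of -1.61 ± 0.14 (adjusted p = 7.24e-06) and -1.38 ± 0.13 (adjusted p = 1.81e-05). Gas1 rose at E7.5 and read 0.13 ± 0.09 at E9.5, a difference of 1.05 ± 0.13 (adjusted p = 0.000134). Each stage had its own pools, start of treatment and depth. The short gene models took 29.05 to 51.9 CPM in the Oct4 E7.5 libraries and 0.634 to 1.44 CPM in the Oct4 E9.5 libraries. The part of library preparation in the differences between stages was not tested.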

How the data were processed

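RNA of pools of whole embryos was sequenced, and the authors deposited estimated counts per gene (expected counts), made with RSEM 1.17 on NCBIM37 per the submitters' processing notes, which also name cutadapt, Picard and limma without roles. The aligner and strand setting are not given in the sources used here. Counts were rounded (19.4% to 21.4% of values in these 6 libraries were not whole) and symbols, biotypes and coordinates taken from GENCODE M1 (Ensembl 65), which held 37309 of 37680 gene IDs. All columns were used.

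Genes kept by filterByExpr were tested between 3 induced and 3 control pools with edgeR 4.0.16 in R 4.3.3 (TMM, robust quasi-likelihood F test, two-sided), and an SE is the fold change over the root of F. The tests of a difference between responses used interaction contrasts over both lines or both stages, and the stage comparison the Nanog line's controls. Alternatives were size factors of DESeq2, no filter, DESeq2 1.42.0, limma-voom (limma 3.58.1), a replicate block, 1 model over 22 libraries and leaving out each library. Scripts were tested on simulated data. Replicate pools differed beyond counting noise (chi-square per degree of freedom 10.5 to 67.1), so no library was counted once for a pair.

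The comparison and the 53 gene lists, of which 791 genes were tested, were chosen with earlier results of these data known. Genes were named by a rule: Pou5f1, Nanog and Sox2, the 12 highest and 12 lowest called fold changes at 5 CPM or more, the 10 largest increases and 10 largest decreases in CPM, up to 5 called members of a list in each direction, any Hox gene, and the 5 highest and 5 lowest of each interaction. Other called members were added after their values were seen, and a few genes are not reported here. Promoters are from the RefSeq table for GRCm38.p6, and no coordinates were moved between builds.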

Additional observations from a re-analysis of the deposited data

Results flagged for a closer look

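The response to Oct4 at E7.5 was set against the response of the same line at E9.5, where 3 induced pools had doxycycline from E6.5 and 3 pools had none. The difference between the responses was called for 1094 of 16359 genes (6.69%), 303 higher and 791 lower at E7.5, and the genes below were among them. Each difference below is the log2 fold change at E7.5 minus that at E9.5 from edgeR's interaction contrast, and each marks a response that differed between the stages. Stage, start and route of treatment, pool size, depth and the level of short gene models differ together and cannot be told apart.

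Pou5f1 differed by -7.01, with fold changes of 1.38 at E7.5 and 8.39 at E9.5, where its controls were near 0. Scaled over all 22 libraries, it averaged 603 CPM in induced and 233 CPM in control pools at E7.5. At E9.5 it averaged 249 and 0.822 CPM, so the larger fold change came with a lower induced level. Of the epiblast and streak genes, Foxd3 differed by 5.26, Fgf5 by 3.53, Wnt3 by 2.64 and Dnmt3b by 0.80, and Slc35d3 differed by 2.03. Fgf5 and Slc35d3 were too low to be tested at E9.5 alone, at 0.592 and 0.73 CPM in induced pools and 0.838 and 0.686 CPM in control pools. The difference of Fgf5 was lost without E9.5 induced 3 or any 1 of the E9.5 controls, up to 0.0569, and that of Slc35d3 without E9.5 induced 3 or E9.5 control 1, up to 0.0733. Foxd3 read 0.54 ± 0.19 and Wnt3 -0.10 ± 0.21 at E9.5, and neither passed there.

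Some posterior and somite genes, and the neural gene Hes3, were called in opposite directions at the 2 stages. Cdx1 differed by -6.22, with a fold change of 2.58 ± 0.16 at E9.5, Msgn1 by -6.06 (2.83 ± 0.29 at E9.5), Hes3 by -8.70 (2.001 ± 0.14) and Meox1 by -5.05 (0.45 ± 0.07), and all 4 were called lower at E7.5 and higher at E9.5. Aldh1a2 differed by -4.67 and Hoxb6 by -3.64, again lower at E7.5 and higher at E9.5 (0.51 ± 0.07 and 0.65 ± 0.11 at E9.5). Other genes of these groups did not pass at E9.5, such as Cdx4 (1.99 ± 0.45, adjusted p = 0.0799), Hoxb8 (0.34 ± 0.12) and Hoxb4 (0.28 ± 0.11). Shh differed by -3.08 and was lower at both stages (-0.73 ± 0.12 at E9.5). Hbb-bh1 differed by -6.42 and Tbx4 by -5.57, and neither passed at E9.5 (0.44 ± 0.14 and 1.15 ± 0.64).

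The remaining differences were -4.79 for Arg1, -3.05 for Svep1, -2.12 for Greb1l, -1.09 for Igf2, -1.08 for Slc2a1, -1.01 for Prtg, -0.98 for Slc2a3, -0.93 for Grsf1, -0.63 for Mest, -0.59 for Podxl, -0.48 for Serpinh1, 0.32 for G3bp2 and 0.60 for Rps3a. The difference of Rps3a was kept in 3 of 12 fits without 1 library, those without E7.5 induced 1, E9.5 induced 3 or E9.5 control 1. That of G3bp2 was kept in 7 of 12, and lost without E7.5 control 3, E9.5 induced 3, E9.5 induced 5, E9.5 control 1 or E9.5 control 2. The call of G3bp2 at E7.5 itself was lost without any 1 of the 6 libraries (0.0526 to 0.25).

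Against the induction of Nanog at E7.5, the difference (Oct4 minus Nanog) was -4.01 for Pcdh12, -2.14 for Clu, -2.03 for Dlx3, -1.98 for Pecam1, -1.25 for H2-T23, 1.59 for Tcte2 and 1.81 for B4galnt2. Of these, Pecam1 was called in 10 of 11 fits without 1 library and Tcte2 in all 11, while Pcdh12, H2-T23 and B4galnt2 were called in 2, Dlx3 in 3 and Clu in 4. The mitochondrial tRNA genes mt-Tg, mt-Te and mt-Ts1 differed by 8.00, 8.52 and 10.19. mt-Tg and mt-Ts1 had no count in any Nanog induced pool, so their fitted values depend on the prior count and are no measure of size.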

How the results depend on the processing

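The count of called genes was 973 to 1300 with size factors of DESeq2, limma-voom, DESeq2 or no filter on low counts, of which 940 to 983 were among the 991, and 1638 with 1 model over all 22 libraries, which shared 909. The cause of the larger count was not tested. Without 1 library it ranged between 438 and 1101, lowest without control 3 (438) and control 1 (504) and then without induced 3 (584), and a fit with 2 pools in a group also has fewer residual degrees of freedom. The difference from Nanog was called for 56 genes with no filter on low counts and for 16 to 102 without 1 library, most without the first Nanog induced pool. The difference from E9.5 was called for 734 to 1361 genes, and the stage difference for 8253 to 8752, without 1 library. Members of lists called numbered 145 to 222 without 1 library. Pou5f1 read 1.32 to 1.48 under every setting tried, and of 229 named genes no fold change turned its direction under a setting that tested it, with 227 tested in the model over all libraries and 228 without control 3. The fit by DESeq2 ended the call of 2 named genes, Ebf3 among them, limma-voom that of Fgf17, Lama1, Plvap and Sox9, and size factors of DESeq2 that of Sox9. With no filter 7 no longer passed, Ccnd2, G3bp2, Gsc, Hoxb2, Lefty1 and Nkx1-2 among them, and with 1 model over all libraries Cdkn1c, Gzma, Hes7, Nanog, Plvap, Prf1 and S100a9 did not.

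No label says that equal replicate numbers pair the pools. The correlations of same-numbered pools' deviations were 0.238, 0.249 and 0.0524, and those of the other pairs lay between -0.26 and -0.007. Each induced pool thus correlated best with its own number, a hint from the data and not the design. The fit with the replicate number as a block called 1287 genes in place of 991, 951 of them shared, and ended the call of 7 named genes, Ebf2, Ebf3, Fgf4, Gzma, Otx1 and Smyd1 among them. For the stage difference it called 9179 genes in place of 9493. With the number within each line or stage as a replicate block, added after seeing the data, the difference from Nanog was called for 95 genes in place of 34 and that from E9.5 for 282 in place of 1094. Each of these blocks shares only 1 number between induced and control pools of the other line or stage, which leaves few residual degrees of freedom. Of the genes named for the difference from E9.5, Fgf5, Wnt3, Slc35d3, Dnmt3b, Rps3a, G3bp2, Podxl, Mest, Serpinh1 and Grsf1 did not pass with that block.

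Limits of depth are small here, since 3 counts correspond to 0.0709 to 0.121 CPM. The smallest libraries are those of the Nanog line at E7.5 and of E9.5, down to 4.72 M counts. More than 1 sequencer is named for the series without saying which library ran on which, so the instrument cannot be told apart from the groups. Reads of a gene and its antisense partner, and of near-identical globin copies, are not told apart with certainty.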
